A study of Homo sapiens with 4 samples.

Results

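The genes described here encode the EGF receptor family, its ligands and one of its inhibitors, in KYSE150 cells, an established human line from an esophageal squamous cell carcinoma. The 10 genes were taken by name: the receptors EGFR, ERBB2 and ERBB3, the ligands TGFA, HBEGF, AREG, EREG, BTC and NRG1, and the inhibitor ERRFI1. Of these, 8 had a row among the 17825 rows of the table, and all 8 of those passed the filter on low counts, which kept 14207 genes. AREG and EREG were not analysed here. RNA-seq compared cells that received an siRNA directed at CEBPG, the gene of the transcription factor C/EBP gamma (siCEBPG, n = 2 libraries), with cells that received a negative control (Control, n = 2 libraries). The cells of both groups were grown in RPMI1640 with 10% FBS, and 1 siRNA, numbered 1 in the labels, was used. No label tells if the 2 libraries of a group are separate cultures, and the p-values thus reflect a spread that may be technical.

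Receptors of this family are tyrosine kinases that act in pairs. Most ligands are made as membrane-anchored precursors that proteases release; TGFA, HBEGF, AREG, EREG and BTC bind EGFR, whereas NRG1 binds ERBB3. ERBB2 has no known soluble ligand of its own and is the preferred partner of the others, and ERBB3, whose kinase is weak, recruits PI3K directly. In squamous epithelium EGFR is a main driver of growth, and the title given to the series concerns CEBPG and the PI3K-AKT pathway.

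CEBPG was lowered in both siRNA libraries, with 214 and 204 counts in siCEBPG cells against 792 and 751 counts in Control cells. Its log2 fold change was -1.98 (standard error, SE, 0.077; adjusted p = 1.82e-11 by edgeR). Library totals were between 15432762 and 15536501 counts. Over all genes tested, edgeR called 54.3% at an adjusted p under 0.05, 25.5% higher and 28.8% lower in siCEBPG cells, so that a call alone does not set a gene apart. Of the called genes 46.9% were higher with TMM factors (the scaling between libraries used throughout), 57.1% with upper-quartile factors and 61.6% with total counts alone, which moved the median of all log2 fold changes to 0.10. The squamous and epithelial markers summed to 2385 and 2426 CPM (counts scaled to library depth) in siCEBPG cells and to 2141 and 2128 CPM in Control cells, with 12 of 13 listed in the table. Of these 12, edgeR called 6 higher and 3 lower, the lower ones being KRT14 (log2 fold change -1.09), KRT17 (-0.99) and DSC3 (-0.11). Markers of stroma, endothelium, blood cells and retina summed to 27.6 and 25.3 CPM in siCEBPG cells and to 22.7 and 20.6 CPM in Control cells, with 6 of 18 listed. Of the 5 tested, edgeR called 1 higher, CDH5 (log2 fold change 0.775, adjusted p = 4.49e-05), and 0 lower. CDH5 was at 12.4 and 12.5 CPM in siCEBPG cells against 7.27 and 7.28 CPM in Control cells. Retina was included because the design text uses the word retinal. The part of these marker differences in the results below was not tested. In bulk RNA, fewer cells of a type and less RNA per cell cannot be told apart.

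ERBB2 and ERBB3 rose and EGFR fell slightly in siCEBPG cells, while the ligands TGFA, NRG1 and HBEGF fell and the scarce ligand BTC was called higher. The inhibitor ERRFI1 fell slightly. In all, edgeR called 3 members higher and 5 lower, each with no overlap between the groups. One of the higher members is BTC, which passed the filter through its siCEBPG libraries and whose call was lost without any 1 library, so that 2 were higher without it. The same held for either direction in 54.3% of all genes tested for the call and in 76.2% for groups that do not overlap, so these counts by themselves say little about the family. The authors' deposited table also lists 7 of the 8 genes, all but BTC, with an adjusted p of at most 0.0409. Of all its 17825 rows, 30.4% are under 0.05. These rows include 4493, BTC among them, whose adjusted p is not read here as a test result. The share without those rows is higher, so 30.4% is too low a background for the 7 genes. The size and direction of each gene's change are given below by role.

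**Figure D1:**
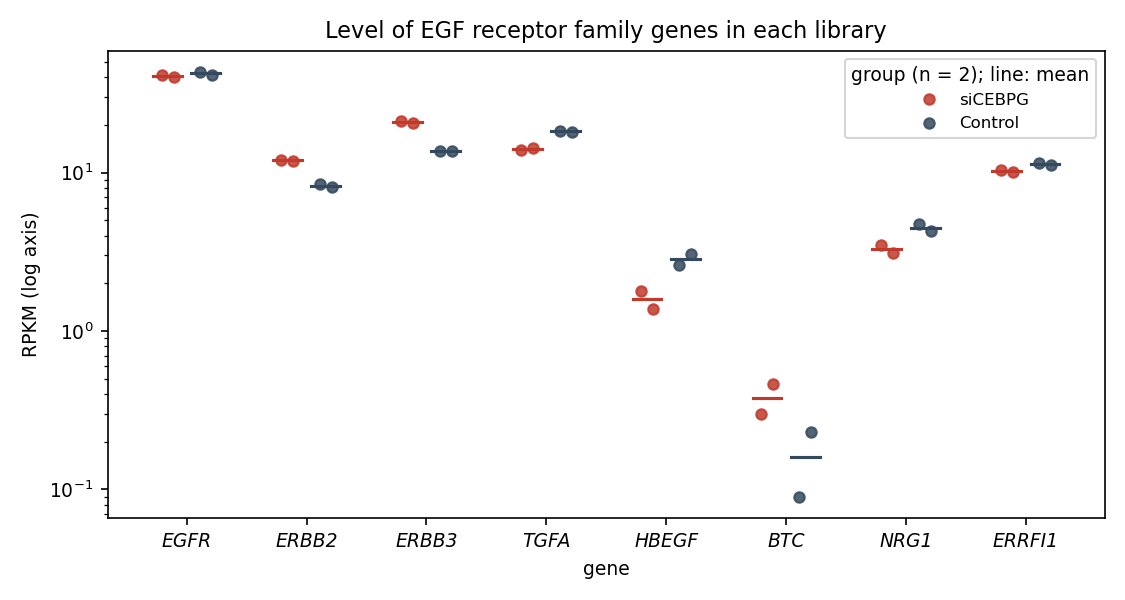
Level of the 8 genes in each library, as deposited RPKM (counts scaled to gene length and library depth) on a log axis, with siCEBPG libraries left of Control libraries and a line at the mean of each pair. EGFR was the highest in all 4 libraries, at 39.9 to 43.2 RPKM, and BTC the lowest, at 0.09 to 0.46 RPKM.

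Among the receptors, EGFR was the most abundant per unit of length. Its deposited RPKM was 41.55 and 39.9 in siCEBPG cells against 43.2 and 41.38 in Control cells. The RPKM ranges of the groups overlapped, because RPKM follows the total counts. After TMM scaling the levels were 520 and 502 CPM in siCEBPG cells and 580 and 556 CPM in Control cells, and these did not overlap. The log2 fold change was -0.15 (SE 0.037; adjusted p = 0.00263 by edgeR); the level changed by -10.1%. This call was lost with upper-quartile factors (-0.08, adjusted p = 0.0642), with total counts alone (-0.05, adjusted p = 0.226), without Control replicate 1 (-0.12, adjusted p = 0.0953) and without siCEBPG replicate 2 (-0.13, adjusted p = 0.0819). Other scaling factors add 1 constant to the log2 fold change of every gene, so EGFR's difference from the median of all genes was -0.16 with each of them by construction and does not bear on its call.

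The antisense gene EGFR-AS1 had 13 and 6 counts in siCEBPG cells against 4 and 4 counts in Control cells, and was below the filter. No source used here states if counting used strand, so reads of EGFR and of its antisense partner cannot be told apart.

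ERBB3, the receptor that binds NRG1, was higher in both siCEBPG libraries. It had 2827 and 2777 counts in siCEBPG cells against 1839 and 1832 counts in Control cells. Its level was 175 ± 2.16 CPM in siCEBPG cells and 122 ± 0.156 CPM in Control cells (SD, n = 2 each). The log2 fold change was 0.52 (SE 0.042; adjusted p = 6.22e-08 by edgeR), a 1.43-fold rise. Over 12 alternatives it lay between 0.49 and 0.62, with adjusted p-values up to 0.00969.

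ERBB2, the shared partner receptor, rose by a similar factor. It had 1928 and 1881 counts in siCEBPG cells against 1356 and 1301 counts in Control cells. Its level was 119 ± 2.05 CPM in siCEBPG cells and 88.6 ± 2.47 CPM in Control cells (SD, n = 2 each). The log2 fold change was 0.43 (SE 0.047; adjusted p = 1.74e-06 by edgeR), a 1.34-fold rise, and over 12 alternatives it lay between 0.39 and 0.53.

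Ratios of RPKM within a library do not depend on the scaling between libraries. The ERBB3 to EGFR ratio was 0.509 and 0.519 in siCEBPG libraries against 0.316 and 0.330 in Control libraries. The ERBB2 to EGFR ratio was 0.291 and 0.295 in siCEBPG libraries against 0.196 and 0.196 in Control libraries. Both ratios were higher in each siCEBPG library than in either Control library, on average 1.59 times as high for ERBB3 and 1.496 times for ERBB2. The ERBB3 to ERBB2 ratio was 1.75 and 1.76 in siCEBPG libraries against 1.62 and 1.68 in Control libraries, a smaller shift with a mean ratio of 1.06. No test was made of these ratios, because an exact permutation test of 2 libraries against 2 cannot pass the threshold.

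**Figure D2:**
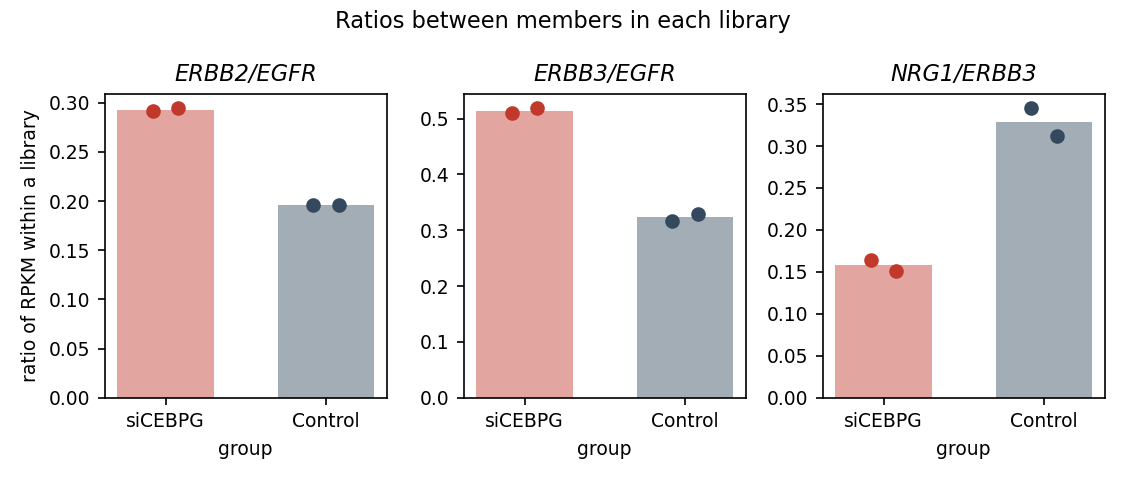
Ratios of RPKM between pairs of members within each library, as points, with bars from 0 at the mean of the 2 libraries of a group and siCEBPG left of Control. ERBB2 and ERBB3 were higher relative to EGFR in both siCEBPG libraries, and NRG1 was lower relative to ERBB3.

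TGFA, which encodes the ligand TGF-alpha, was the most abundant ligand analysed. Its deposited RPKM was 13.86 and 14.26 in siCEBPG cells against 18.44 and 17.98 in Control cells. Both siCEBPG libraries were below both Control libraries. TGFA fell by 0.47 on the log2 scale (SE 0.049; adjusted p = 1.13e-06 by edgeR), and its log2 fold change lay between -0.49 and -0.37 over 12 alternatives.

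NRG1, which encodes neuregulin 1, had 411 and 371 counts in siCEBPG cells against 562 and 505 counts in Control cells. The groups did not overlap in counts. Its level was 24.5 ± 1.76 CPM in siCEBPG cells and 35.6 ± 2.64 CPM in Control cells (SD, n = 2 each). NRG1 fell by 0.54 on the log2 scale (SE 0.080; adjusted p = 4.03e-05 by edgeR), with values from -0.62 to -0.44 over 12 alternatives. NRG1 and its receptor gene ERBB3 thus moved in opposite directions. The NRG1 to ERBB3 ratio of RPKM was 0.164 and 0.151 in siCEBPG libraries against 0.345 and 0.312 in Control libraries. The table gives NRG1 as 1 gene, so its isoforms could not be told apart.

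HBEGF, which encodes heparin-binding EGF-like growth factor, had 84 and 64 counts in siCEBPG cells against 122 and 144 counts in Control cells. Its level was 4.63 ± 0.884 CPM in siCEBPG cells and 8.88 ± 1.05 CPM in Control cells (SD, n = 2 each). HBEGF fell by 0.94 on the log2 scale (SE 0.16; adjusted p = 0.000161 by edgeR), the largest fall among the members. The call was lost without Control replicate 2 (-0.82, adjusted p = 0.0573). Over 12 alternatives the log2 fold change ranged from -1.14 to -0.75.

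BTC, which encodes betacellulin, was near the detection limit, with 13 and 20 counts in siCEBPG cells against 4 and 10 counts in Control cells. It passed the filter on low counts through its siCEBPG libraries, so a difference was in part set by the filter. The groups did not overlap, but the gap between them was 3 counts. The log2 fold change was 1.13 (SE 0.45; adjusted p = 0.0466 by edgeR). The call was lost without any 1 of the 4 libraries and without the filter on low counts, with estimates from 0.62 to 1.92 and adjusted p-values from 0.0227 to 0.387 over 10 alternatives. The authors' deposited table lists an unadjusted p of 0.151 for BTC and an adjusted p of 1, a value listed for 4493 rows and not read here as a test result.

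The 4 ligands summed to 19.4 and 19.2 RPKM in siCEBPG cells against 25.85 and 25.5 RPKM in Control cells. TGFA made up 71.3% and 74.2% of this sum in siCEBPG cells against 71.3% and 70.4% in Control cells. NRG1 made up 17.9% and 16.3% in siCEBPG cells against 18.3% and 16.6% in Control cells. HBEGF made up 9.26% and 7.13% in siCEBPG cells against 10.1% and 12.03% in Control cells. BTC made up 1.54% and 2.39% in siCEBPG cells against 0.348% and 0.901% in Control cells. The shares of TGFA and NRG1 overlapped between the groups and those of HBEGF and BTC did not, while the sum was lower in both siCEBPG libraries. Shares of RPKM depend on the gene lengths behind it. Of the summed CPM, NRG1 made up 26.2% and 23.9% in siCEBPG cells against 26.6% and 24.7% in Control cells. All these shares leave out AREG and EREG.

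ERRFI1, which encodes the EGFR kinase inhibitor also called MIG6, was at 42.3 and 41.2 CPM in siCEBPG cells against 50.1 and 48.2 CPM in Control cells. The groups did not overlap. ERRFI1 fell by 0.24 on the log2 scale (SE 0.060; adjusted p = 0.00399 by edgeR). The call was lost with total counts alone (-0.14, adjusted p = 0.0685), without Control replicate 1 (-0.21, adjusted p = 0.0783) and without siCEBPG replicate 2 (-0.21, adjusted p = 0.0612).

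**Figure D3:**
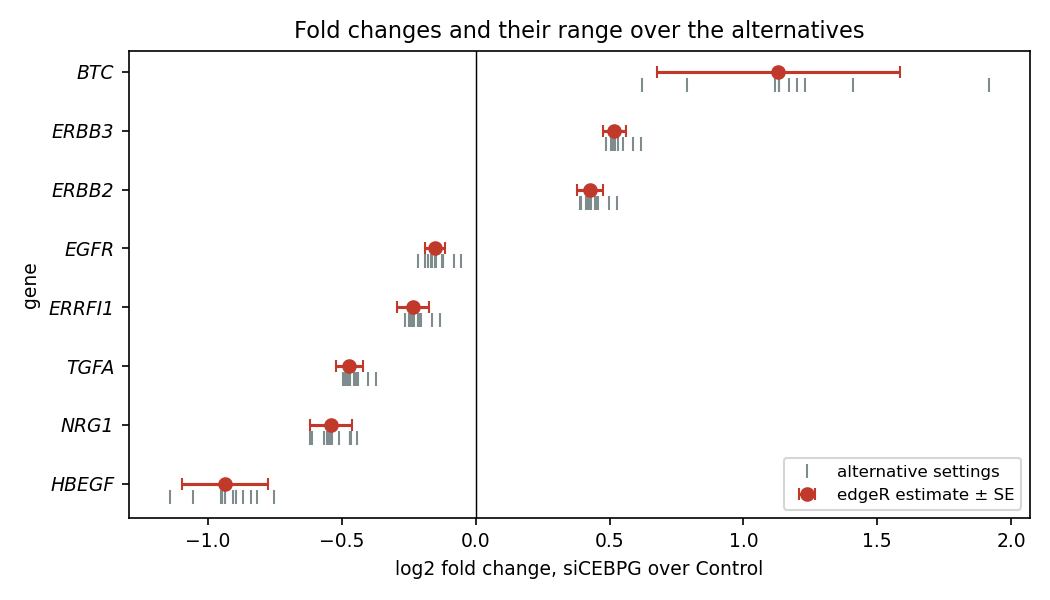
Log2 fold changes of siCEBPG over Control for the 8 genes, as red points with bars of 1 SE derived from the edgeR F statistic, and grey ticks at the estimates under the alternative settings that gave an adjusted p. ERBB3 and ERBB2 stayed above 0 and the 5 lower genes below 0 in every alternative drawn, and the ticks of BTC spread from 0.62 to 1.92.

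The order of the levels by RPKM changed at 2 places. In siCEBPG cells it ran EGFR, ERBB3, TGFA, ERBB2, ERRFI1, NRG1, HBEGF and BTC. In Control cells it ran EGFR, TGFA, ERBB3, ERRFI1, ERBB2, NRG1, HBEGF and BTC. ERBB3 was thus above TGFA in siCEBPG cells, at 20.9 RPKM against 14.1 RPKM on average, and below it in Control cells, at 13.7 RPKM against 18.2 RPKM. ERBB2 was above ERRFI1 in siCEBPG cells, at 11.9 RPKM against 10.3 RPKM, and below it in Control cells, at 8.29 RPKM against 11.3 RPKM. No neighbours in either order overlapped in their 2 libraries. An order between genes depends on the gene lengths behind the RPKM. The deposited values imply 10.33 kb for ERBB2 and 4.188 kb for ERRFI1. The transcripts chosen for the search below have 4545 bases for ERBB2 and 3104 bases for ERRFI1. For NRG1 the deposited values imply 7.655 kb, and the chosen transcript has 2035 bases. The change of place of ERBB2 and ERRFI1, and the place of NRG1, may thus not hold with other lengths, which were not tried.

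The 3′ UTRs of the members were searched for the 7-base word GGCTATT, because genes that hold it were lower in siCEBPG cells. It was present in 6.93% of 11108 3′ UTRs, whose genes had a median log2 fold change of -0.35, against -0.005 for genes without it. CEBPG, the target of the siRNA, holds it in exon 2 of its transcript, at chr19:33379810-33379816 of GRCh38, plus strand. The site is printed with 11 bases on each side and the word in capitals.
CEBPG 3′ UTR site: gacccattggaGGCTATTttctgggatca
None of the 8 members with values held the word on the sense strand of any coding transcript searched (GENCODE release 29), that is, 0 of 8. Transcripts annotated with an incomplete coding sequence or an incomplete 3′ end were not searched. The chosen transcript of NRG1 has a 3′ UTR of 5 bases, under the minimum of 50, so the count to set against the background share of 6.93% is 0 of 7, which is not a result about the family. Leaving out genes with the word therefore changed no member's call.

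The promoters of a rising receptor, of EGFR and of the falling ligands TGFA and HBEGF are shown for comparison, from 250 bases before to 50 bases after the start that RefSeq gives first (GRCh38.p14). Capitals mark matches on either strand to TTGCNNAA (a form of the C/EBP site), TGATGNAA (the core of the element bound by C/EBP-ATF pairs), TGANTCA (the AP-1 site), GGGCGG (the GC box) and TATAAA (the TATA box).
EGFR promoter, chr7:55018767-55019066, plus strand: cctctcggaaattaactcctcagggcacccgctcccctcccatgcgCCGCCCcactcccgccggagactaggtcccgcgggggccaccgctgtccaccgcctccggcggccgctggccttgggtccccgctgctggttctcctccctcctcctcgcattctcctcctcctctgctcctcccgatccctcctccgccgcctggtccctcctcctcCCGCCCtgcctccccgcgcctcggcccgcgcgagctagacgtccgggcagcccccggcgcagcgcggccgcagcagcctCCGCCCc
ERBB2 promoter, chr17:39687844-39688143, plus strand: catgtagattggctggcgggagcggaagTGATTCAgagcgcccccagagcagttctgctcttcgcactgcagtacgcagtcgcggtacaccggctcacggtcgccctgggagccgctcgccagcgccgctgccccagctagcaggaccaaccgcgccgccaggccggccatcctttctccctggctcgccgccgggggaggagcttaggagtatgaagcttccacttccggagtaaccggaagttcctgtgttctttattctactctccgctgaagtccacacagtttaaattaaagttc
TGFA promoter, chr2:70553777-70554076, minus strand: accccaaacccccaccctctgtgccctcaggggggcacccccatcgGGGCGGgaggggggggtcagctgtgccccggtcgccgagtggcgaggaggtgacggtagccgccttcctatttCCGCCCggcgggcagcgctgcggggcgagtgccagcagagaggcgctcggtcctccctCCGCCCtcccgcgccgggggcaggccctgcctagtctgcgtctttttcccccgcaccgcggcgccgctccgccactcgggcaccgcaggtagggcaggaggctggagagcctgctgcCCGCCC
HBEGF promoter, chr5:140346554-140346853, minus strand: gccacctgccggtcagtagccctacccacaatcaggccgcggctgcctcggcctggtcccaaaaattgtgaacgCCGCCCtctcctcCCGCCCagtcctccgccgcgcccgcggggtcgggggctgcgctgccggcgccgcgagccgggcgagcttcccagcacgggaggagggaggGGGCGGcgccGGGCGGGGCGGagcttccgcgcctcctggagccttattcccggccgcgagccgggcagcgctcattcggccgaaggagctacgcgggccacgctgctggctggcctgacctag
Neither C/EBP motif was in these 4 windows. Among all 35116 promoters of this length, TTGCNNAA was in 10.5%, TGATGNAA in 3.62%, TGANTCA in 7.71%, GGGCGG in 44.95% and TATAAA in 11.5%. The EGFR window held 3 GC boxes, the TGFA window 4 and the HBEGF window 5, of which 2 overlap by 1 base, and none of these windows held a TATA box. The ERBB2 window held 1 match to the AP-1 site, 222 bases before this listed start, and no GC box. No window was matched to the transcripts chosen for the word search. The ERBB2 window may thus belong to an alternative start, and its contrast with the other windows is not read as a result. Of the 8 members with values 6 had an entry, and ERBB3 and NRG1 had none. EGFR and TGFA each have a second entry; that of EGFR held 1 match to TTGCNNAA, 2 to TGANTCA and 2 to TATAAA. A match describes letters and not binding, and no match says nothing about a factor.

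Other genes of the pathway changed in both directions. Of 85 tested genes in 5 lists, 24 were higher (28.2%) and 34 lower (40.0%) in siCEBPG cells, beside 25.5% higher and 28.8% lower over all genes tested, the background for the counts of each list too. These genes had a median log2 fold change of -0.04, against 0.005 over all genes tested. Without Control replicate 2 the higher genes were 14. The word GGCTATT was in 12 of 82 3′ UTRs of these genes (14.6%), beside 6.93% of all 3′ UTRs searched. Without the 12 genes that hold it, 24 were higher and 24 lower, against 24 higher and 34 lower with them. Leaving them out thus lowered the count of lower genes alone. The part of the word in the lower calls was not tested. Other receptor family genes and ligands were scarce or not analysed here: NRG4 had a log2 fold change of 0.23 (edgeR, adjusted p = 0.206) and NRG2 of 0.02 (adjusted p = 0.966), and ERBB4, EGF, EPGN and NRG3 were not analysed here.

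Proteases that release the ligands, and their partners, showed 4 genes higher and 1 lower of 9 tested, with a median of 0.20. ADAM17, the main sheddase of TGF-alpha and HB-EGF precursors, was at 135 and 136 CPM in siCEBPG cells against 110 and 111 CPM in Control cells. Its log2 fold change was 0.30 (SE 0.043; adjusted p = 3.14e-05 by edgeR). RHBDF1 and RHBDF2, which encode the iRhom partners of ADAM17, were higher by 0.20 and 0.24 on the log2 scale (edgeR, adjusted p = 0.00634 and 0.0132). They were named after their values were seen. FRMD8, also of this list and named in the same way, was not called (edgeR, adjusted p = 0.999). It was at 35.7 and 41.9 CPM in siCEBPG cells against 37.1 and 40.5 CPM in Control cells. ADAM15 rose by 0.87 on the log2 scale and ADAM9 fell to 62.0 ± 0.956 CPM in siCEBPG cells, against 174 ± 4.61 CPM in Control cells (SD, n = 2 each, log2 fold change -1.49, edgeR, adjusted p = 2.24e-12). With DESeq2, or without Control replicate 1 or Control replicate 2, 2 genes of the list were called higher, ADAM15 and ADAM17. With the length trend removed 2 genes were called lower, ADAM9 and ADAM10 (log2 fold change -0.09, edgeR, adjusted p = 0.0444).

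Among adaptors and the RAS-RAF-ERK cascade, 13 genes were higher and 8 lower of 25 tested, with a median of 0.15. STAT3, a transcription factor that EGFR can activate, was at 202 and 199 CPM in siCEBPG cells against 124 and 123 CPM in Control cells, with a log2 fold change of 0.70 (edgeR, adjusted p = 1.78e-09). SOS2, an exchange factor that activates RAS, rose by 0.57 on the log2 scale. KSR1, a scaffold of the ERK cascade, fell by 0.72 on the log2 scale (SE 0.11; adjusted p = 4.07e-05 by edgeR). Without Control replicate 1 the higher genes were 8 and without Control replicate 2 they were 7.

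Genes that ubiquitinate, internalize or otherwise attenuate the receptors showed 5 higher and 11 lower of 28 tested, with a median of -0.06. STAM, part of the complex that sorts ubiquitinated receptors at endosomes, was at 24.6 and 22.2 CPM in siCEBPG cells against 60.3 and 58.4 CPM in Control cells, with a log2 fold change of -1.34 (edgeR, adjusted p = 4.4e-10). STAM holds the word GGCTATT in its 3′ UTR. RNF41, a ubiquitin ligase for ERBB3 also called NRDP1, was at 22.8 and 23.2 CPM in siCEBPG cells against 43.8 and 47.4 CPM in Control cells, with a log2 fold change of -0.99 (SE 0.071; adjusted p = 1.92e-08 by edgeR). EPS15, an endocytic adaptor for EGFR, fell by 0.96 on the log2 scale. Of the 5 higher genes, PTPRJ rose most, by 0.835 on the log2 scale (edgeR, adjusted p = 1.36e-08). PTPRJ was named after its value was seen. The higher genes were 8 with upper-quartile factors, with total counts alone or with at least 50 counts in 2 libraries, and the lower genes were 7 without Control replicate 1 or Control replicate 2.

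Genes induced by ERK signaling were mostly lower, with 14 lower and 2 higher of 21 tested and a median of -0.47, against 0.005 over all genes. Of the lower genes, SPRED1, SPRED2 and DUSP6 hold the word GGCTATT. That is 3 of 20 3′ UTRs of the list (15.0%), beside 6.93% of all 3′ UTRs searched. The part of the word in these lower calls was not tested. CCND1, which encodes cyclin D1, had the largest fall of the list, by 1.74 on the log2 scale (SE 0.041; adjusted p = 1.3e-13 by edgeR). DUSP4, a phosphatase that acts on ERK kinases, was at 24.0 and 26.0 CPM in siCEBPG cells against 65.5 and 61.1 CPM in Control cells, with a log2 fold change of -1.34 (edgeR, adjusted p = 4.15e-10). The growth regulator gene MYC fell by 1.13 on the log2 scale. The 2 higher genes, named after their values were seen, were the immediate early genes EGR1 (0.57, edgeR, adjusted p = 1.86e-06) and IER2 (0.43, adjusted p = 0.000195). The list's lower genes were 11 to 13 with 1 library left out, and 1 gene was called higher without Control replicate 2.

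**Figure D4:**
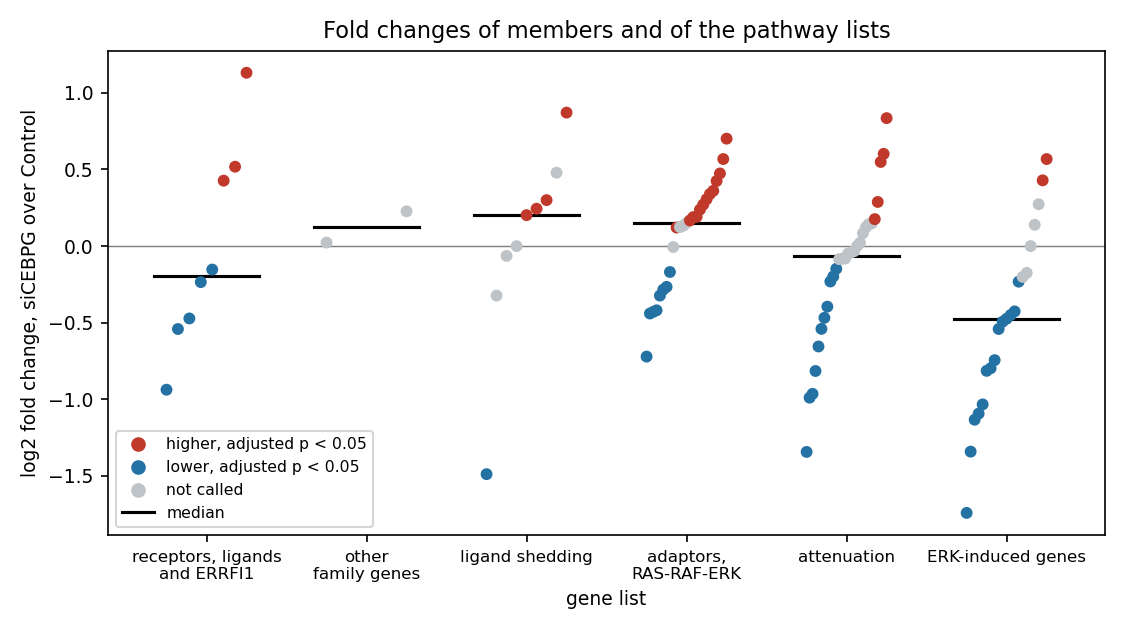
Log2 fold changes of siCEBPG over Control for the 8 genes and for each pathway list, 1 point a gene, red for genes called higher, blue for genes called lower and grey for others, with a line at each list's median. The ERK-induced genes had the lowest median, -0.47, and the shedding genes the highest, 0.20.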

How the data were processed

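RNA-seq of KYSE150 cells was analysed from the deposited table of counts per gene name (4 libraries); the submitters' processing notes name, with no role, the hg19 build and RSEM 1.2.12, HISAT2 2.0.4, DESeq 3.4 and Bowtie2 2.2.5. RSEM counts are estimates, so the counts may have been rounded before deposit. The deposited RPKM values (read counts scaled to gene length and library depth, per the file headers) were used for levels between genes and entered no test. Of the authors' comparison, per the file headers, the deposited log2 fold change with its standard error and the deposited p-value columns served only as a check, and the deposited signal (mean normalized count) and score (Wald statistic) columns were not used.

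Counts were tested with edgeR 4.0.16 in R 4.3.3: TMM factors, filterByExpr with a minimum count of 10, quasi-likelihood F test (two-sided), Benjamini-Hochberg adjustment over 14207 genes, threshold 0.05. CPM here use the library size times the TMM factor. The F test returns no SE, so each SE given with it is the absolute log2 fold change divided by the square root of F. BTC, the scarcest member, passed the filter through its siCEBPG libraries. The test was checked on simulated data in which few genes changed, with as many raised as lowered. That check does not cover a share of changed genes as large as the one called here, nor the choice of scaling. Alternatives were DESeq2 1.42.0, other scalings and filters, a gene length trend, a replicate block and each library left out. For CEBPG and all members but BTC, the DESeq2 fold changes and adjusted p-values were those of the authors' deposited comparison. The DESeq2 alternative and the deposited comparison are thus not separate checks. Sequences came from GENCODE 29 transcripts (the longest principal coding transcript, 3′ UTRs of at least 50 bases) and RefSeq promoters, both GRCh38, matched by name.

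Named genes were the members, CEBPG, the 3 called genes of largest change in each pathway list and the 3 genes of most like profile to the member of largest change. The members, lists and the word GGCTATT were chosen with earlier results of these data known.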

Additional observations from a re-analysis of the deposited data

How the results depend on the processing

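Of 286 values of 24 named genes under the alternatives, 271 kept their direction and side of the threshold, 15 lost the call and 0 changed sign. CEBPG, ERBB2, ERBB3, TGFA and NRG1 kept their calls in all 12 alternatives. Genes called higher over the whole table were 2210 with DESeq2 and 1737 to 2345 with 1 library left out; genes called lower were 2572 to 3049 with 1 library left out. Members called lower were 3 with total counts alone and 3 to 5 with 1 library left out, and members called higher were 2 without any 1 library, BTC being lost; EGFR and ERRFI1 were the members lost with total counts alone. Pathway genes called higher were 14 to 20 with 1 library left out. Shares of summed CPM gave TGFA 69.2% of the 4 ligands in siCEBPG cells and 67.6% in Control cells. The cause of these shifts was not tested, except that a left-out library leaves fewer samples. With 1 library left out, the lone library of a group is assumed to vary like the other group.

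Replicate numbers are shared between the groups, but nothing in the labels pairs them, and the deviations of same-numbered libraries correlated at 0.0871 over 10329 genes. With the replicate number as a block, 3811 genes were higher and 4319 lower, 3 members were higher and 5 lower, and the CEBPG log2 fold change was -1.98. BTC has no adjusted p with DESeq2 and was not tested at 50 counts in 2 libraries. Leaving out genes with GGCTATT was chosen after seeing the data. Counts under about 20, as for BTC, limit what these libraries can resolve.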

Other observations

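BTC was the called member with the largest absolute change, and the genes of at least 5 CPM whose centred log2 CPM over the 4 libraries lay closest to it were ZNF134, ZNF821 and the noncoding gene LBX2-AS1. Their Euclidean distances were 0.49, 0.50 and 0.52, and their log2 fold changes 0.89, 0.93 and 1.04. They are given because the rule for named genes takes them: BTC had 4 to 20 counts per library, so its profile is mostly counting error and the likeness is not a result. The call of ZNF821 was lost without siCEBPG replicate 1 (adjusted p = 0.0561) or siCEBPG replicate 2 (adjusted p = 0.0521). Reads of ZNF genes may be shared with relatives of similar sequence.

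The authors' deposited table lists log2 fold changes of 0.51 for ERBB3, 0.42 for ERBB2, -0.16 for EGFR, -0.48 for TGFA, -0.55 for NRG1, -0.95 for HBEGF and -0.24 for ERRFI1.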
